A study of Arabidopsis thaliana with 8 samples.

Results

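The mitochondrial genome of Arabidopsis thaliana was represented by 166 of the 34759 rows of the deposited gene table, taken as every row whose position was on the mitochondrial chromosome (ChrM). Transcript levels were given as FPKM, sequenced fragments relative to transcript length and library size. The scale is meant to let genes of different length be set side by side, which was not tested for very short or merged rows. The samples were clf-28 and wild-type (wt) plants of the Col-0 ecotype, and clf-28 is an allele of CURLY LEAF, which encodes a histone methyltransferase of the Polycomb system. Long days and 22 °C were used for every plant; seedlings on plates gave roots and leaves at 2 weeks, and soil-grown plants gave flowers and siliques at 5 weeks. What the labels call leaves was the whole aerial part. Each genotype had 1 library in each of 4 organs, with no replicate, so levels are given without an error. Differences inside an organ are given as sizes, and tests rest on the spread between the libraries of different organs or genotypes.

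Plant mitochondria keep a genome of their own that encodes ribosomal RNAs, some ribosomal proteins, a minority of the subunits of the respiratory complexes and of ATP synthase, and factors that attach haem to cytochrome c. The remaining subunits are encoded in the nucleus and imported, so each respiratory complex is built from products of both genomes. Plant mitochondrial transcripts mostly lack stable poly(A) tails, and the TruSeq RNA kit used here captures polyadenylated RNA. How much of the mitochondrial RNA this left out was not tested, and the levels are those of the RNA that entered the libraries. In whole organs, fewer cells or mitochondria and less RNA in each cannot be told apart.

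The nuclear genome of Arabidopsis carries a large insertion of mitochondrial DNA on chromosome 2, and the RefSeq genome (TAIR10.1, whose nuclear chromosomes share their coordinates with TAIR10) shows how far this limits the assignment of reads. Of the RefSeq mitochondrial genome, 73.2% had a match of at least 95% identity over at least 100 bp on chromosome 2, with a mean identity of 99.8%. The genes for ribosomal protein S12 (rps12), NADH dehydrogenase subunit 3 (nad3) and ATP synthase subunit 1 (atp1) had nuclear copies that differed at 0 of 378, 0 of 357 and 0 of 1524 positions. The genes for the ribosomal RNAs rrn18 and rrn5 and for cox1, nad4L, atp4 and ccmB had no such match. Because the results below turn on these 3 protein genes and on rrn18, the first bases of each are shown, 5′ to 3′ in the sense direction. No base is in capitals, since no position differs between the mitochondrial and the nuclear copy.
rps12, mitochondrial: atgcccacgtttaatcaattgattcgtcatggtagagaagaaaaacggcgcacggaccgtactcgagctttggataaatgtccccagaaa
rps12 copy AT2G07675, chr2:3270410-3270499, plus strand: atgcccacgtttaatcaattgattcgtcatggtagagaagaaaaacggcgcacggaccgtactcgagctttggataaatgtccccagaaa
nad3, mitochondrial: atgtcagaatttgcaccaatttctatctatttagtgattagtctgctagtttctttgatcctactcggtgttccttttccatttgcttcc
nad3 copy AT2G07751, chr2:3270008-3270097, plus strand: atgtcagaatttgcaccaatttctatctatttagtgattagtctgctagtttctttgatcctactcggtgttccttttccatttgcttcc
atp1, mitochondrial: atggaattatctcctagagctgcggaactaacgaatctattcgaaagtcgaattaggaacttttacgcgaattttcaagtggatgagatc
atp1 copy within AT2G07698, chr2:3362505-3362594, plus strand: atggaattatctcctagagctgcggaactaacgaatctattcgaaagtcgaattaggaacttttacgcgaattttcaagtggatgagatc
rrn18, mitochondrial: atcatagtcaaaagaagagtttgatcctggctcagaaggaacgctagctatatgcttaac

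The 166 rows held 142 with 1 gene ID, 9 in which Cufflinks had merged several IDs, and 15 with none. Of these rows, 123 shared 1 position, ChrM 8848 to 290074, so the place of a single gene inside it is not given by the table. The status was usable in all 8 libraries for 164 rows, and 2 rows had too few reads. Most rows were low: 16 were listed at 0 in every library, 44 stayed under 0.1 FPKM, 34 reached 1 FPKM in at least 1 library, and 4 reached 10 FPKM. A product name was taken for 25 IDs from the RefSeq notes on their nuclear copies, and 20 more IDs were noted there as unknown proteins. The rows for rrn18 (ATMG01390) and rrn5 (ATMG01380) were named by equal gene length together with an equal distance of 288 bp between their starts. The other IDs are given as IDs.

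Library facts that touch these rows were as follows. The FPKM worth of 1 read, relative to wt leaves, was put at 0.965 to 1.05 in the libraries from ratios of low values. Only ratios near 1 were kept for this, in wt roots those of 61 of 527 loci. A value near 1 was thus fixed in advance and does not show equal depth, and the absolute depth is unknown. The root markers summed to 384 FPKM in clf-28 roots and 583 FPKM in wt roots, and to at most 18.4 FPKM in any other organ. The anther and pollen markers summed to 1235 FPKM in clf-28 flowers and 1506 FPKM in wt flowers. Of the 4 green tissue markers, all 4 in wt leaves and 2 of 4 in clf-28 leaves and in wt siliques were listed at 0. All 4 lacked a usable status in at least 1 library, so a 0 can be a failed estimate, and they do not check the leaf label. The clf-28 siliques stood apart: the seed markers summed to 10178 FPKM there, with CRC, CRA1 and CRB listed at 0, against 3.03 FPKM in wt siliques. CRC, CRA1 and CRB also lacked a usable status in at least 1 library. The seed markers also summed to 22.8 FPKM in wt roots, against 0.047 FPKM in clf-28 roots, and at most 0.471 FPKM in the leaf and flower libraries.

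Summed over all 166 rows, mitochondrial RNA was highest in roots and lowest in leaves in both genotypes. The sum was 371 FPKM in clf-28 roots and 471 FPKM in wt roots, 218 FPKM in clf-28 flowers and 330 FPKM in wt flowers, 285 FPKM in clf-28 siliques and 238 FPKM in wt siliques, and 110 FPKM in clf-28 leaves and 109 FPKM in wt leaves. As a share of all FPKM this was at most 0.0702% (wt roots) and at least 0.0164% (clf-28 leaves). Those totals take loci listed at 0 as 0, among them green tissue markers in both leaf libraries. The 3 most abundant rows held between 52.0% (clf-28 leaves) and 85.4% (wt roots) of the sum, and the place of roots rested on them. Without these 3 rows the sum was 68.5 FPKM in clf-28 roots and 68.7 FPKM in wt roots, 64.0 in clf-28 flowers and 93.3 in wt flowers, 126 in clf-28 siliques and 95.9 in wt siliques, and 52.6 in clf-28 leaves and 44.1 in wt leaves. Siliques were then the highest and leaves still the lowest in both genotypes. In wt, siliques (95.9 FPKM) were nearly level with flowers (93.3 FPKM), and 1 merged row, that of ATMG00990, held 18.9 FPKM in wt siliques and 8.24 FPKM in wt flowers. The summed FPKM of the plastid genome had another order, with 79.1 FPKM in clf-28 roots and 116 FPKM in wt roots, against 763 to 1568 FPKM in the other 6 libraries.

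Ribosomal RNA led the rows. The row for rrn18, the RNA of the small ribosomal subunit (ChrM 361350 to 363284, 1935 bp), had 173 FPKM in clf-28 roots and 206 FPKM in wt roots. It had 66.8 FPKM in clf-28 flowers and 93.8 FPKM in wt flowers, and 56.8 FPKM in clf-28 siliques and 45.3 FPKM in wt siliques. In leaves it had 20.8 FPKM in clf-28 and 30.2 FPKM in wt. Every other library was above both leaf libraries, and both root libraries were above all others. Relative to leaves, roots were 8.34-fold higher in clf-28 and 6.83-fold higher in wt, and siliques were 2.73-fold higher in clf-28 and 1.50-fold higher in wt. The row for rrn5, a small RNA of the large subunit (118 bp), varied without such an order: 2.88 FPKM in clf-28 roots and 0.531 in wt roots, 2.64 in clf-28 flowers and 7.69 in wt flowers, 8.13 in clf-28 siliques and 2.65 in wt siliques, and 2.75 in clf-28 leaves and 2.82 in wt leaves. The ratio of rrn18 to rrn5 ran from 6.99 in clf-28 siliques to 389 in wt roots. How well FPKM holds for so short a row was not tested.

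Both other leading rows had a similar order of organs. The row that merges ATMG00020 with ATMG00090, ATMG00640, ATMG00650, ATMG00660, ATMG00665 and ATMG00670 had 77.2 FPKM in clf-28 roots and 109 FPKM in wt roots, 44.0 in clf-28 flowers and 70.8 in wt flowers, 55.4 in clf-28 siliques and 53.8 in wt siliques, and 21.2 in clf-28 leaves and 16.8 in wt leaves. The leading row of ATMG00030 had 52.1 FPKM in clf-28 roots and 86.3 FPKM in wt roots, 42.9 in clf-28 flowers and 72.1 in wt flowers, 46.8 in clf-28 siliques and 43.2 in wt siliques, and 15.0 in clf-28 leaves and 18.0 in wt leaves. In both rows the leaf libraries were the lowest of the 8 and wt roots the highest. Within a library these 2 rows stayed close, with a ratio of ATMG00030 to the merged row between 0.675 and 1.07, while rrn18 ran from 0.842 times the merged row in wt siliques to 2.25 times it in clf-28 roots. The sources used here give neither row a product name. A second row of ATMG00030 reached at most 0.153 FPKM, so 1 ID can stand for rows of very different level.

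**Figure D1:**
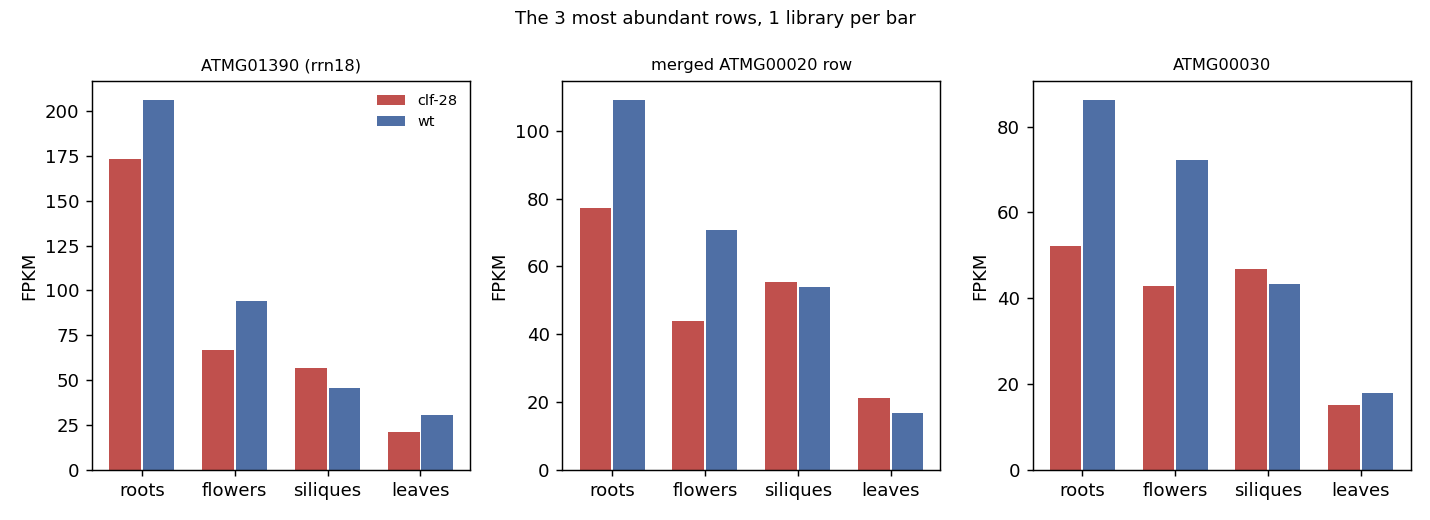
Bars give the FPKM of the 3 most abundant rows in each of the 8 libraries, clf-28 left of wt in each organ, with 1 library per bar and no error. For rrn18 both root libraries (173 FPKM in clf-28 and 206 FPKM in wt) stand above all others, and in the 3 panels both leaf libraries are the lowest.

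Among ribosomal proteins, rps12 stood apart. ATMG00980, annotated as a protein of the S12/S23 family of the small ribosomal subunit, had 8.40 FPKM in clf-28 siliques and 7.68 FPKM in wt siliques. It had 0.763 FPKM in clf-28 roots and 1.82 in wt roots, 1.72 in clf-28 flowers and 3.60 in wt flowers, and 0.922 in clf-28 leaves and 0.782 in wt leaves. Both silique libraries were thus above the 6 others, at 9.11 times the leaf level in clf-28 and 9.82 times in wt. The rows for ribosomal proteins S4, S7 (2 rows) and L5 had at most 0.772 FPKM in any library, the value of L5 (ATMG00210) in clf-28 siliques.

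Complex I takes electrons from NADH into the respiratory chain. Among the 4 rows that could be given a complex I product, the highest mean over the libraries was that of the row that merges ATMG00990, NADH dehydrogenase 3, with ATMG01000 and ATMG01010. It had 18.7 FPKM in clf-28 siliques and 18.9 FPKM in wt siliques, against 2.04 FPKM in clf-28 leaves and 2.07 FPKM in wt leaves. It had 1.58 FPKM in clf-28 roots and 4.52 in wt roots, and 3.96 in clf-28 flowers and 8.24 in wt flowers. As for rps12, both silique libraries were above the 6 others and clf-28 roots were the lowest. The genes nad3 and rps12 lie next to each other, and the nuclear copies shown above keep that order. The merged row was between 2.08 and 2.65 times ATMG00980 in every library.

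The other complex I rows had other orders. The larger row of ATMG01320, NADH dehydrogenase 2B, had 3.68 FPKM in clf-28 roots and 3.07 in wt roots, 2.35 in clf-28 flowers and 2.09 in wt flowers, 2.71 in clf-28 siliques and 2.93 in wt siliques, and 3.47 in clf-28 leaves and 2.52 in wt leaves, so that organs and genotypes overlapped. A second row of that ID had at most 0.655 FPKM, and the ratio between both rows ran from 3.34 to 17.0 over the libraries. NADH dehydrogenase 1A (ATMG01275) had at most 0.382 FPKM.

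Complexes III and IV pass electrons on to oxygen. Apocytochrome b (ATMG00220), the mitochondrially encoded subunit of complex III, had 1.37 FPKM in clf-28 siliques and 1.24 FPKM in wt siliques, against 0.299 FPKM in clf-28 leaves and 0.229 FPKM in wt leaves. It had 0.624 FPKM in clf-28 roots and 0.890 in wt roots, and 0.600 in clf-28 flowers and 0.813 in wt flowers. The silique libraries were the highest and the leaf libraries the lowest in the listed values. Outside siliques all values were under 1 FPKM, where differences were not resolvable here. Subunit 3 of cytochrome c oxidase (ATMG00730) reached 0.722 FPKM in clf-28 siliques and 0.587 in wt siliques and was at 0.232 in clf-28 leaves and 0.178 in wt leaves. The row annotated as cytochrome c oxidase subunit II-like (ATMG01280) had at most 0.314 FPKM. Both of these rows stayed under 1 FPKM in every library, so their order of organs was not resolvable either.

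ATP synthase, or complex V, uses the proton gradient to make ATP. Subunit 1 (ATMG01190, ChrM 302166 to 303689), part of its catalytic head, had 2.32 FPKM in clf-28 roots and 2.52 FPKM in wt roots, 1.32 in clf-28 flowers and 1.96 in wt flowers, 2.42 in clf-28 siliques and 1.90 in wt siliques, and 1.07 in clf-28 leaves and 0.821 in wt leaves. Both leaf libraries were the lowest. Subunit 9 of the membrane part (ATMG01080) had 1.30 FPKM in clf-28 roots and 1.47 in wt roots, 1.68 in clf-28 flowers and 2.28 in wt flowers, 2.46 in clf-28 siliques and 1.64 in wt siliques, and 1.77 in clf-28 leaves and 1.31 in wt leaves, with every organ overlapping leaves. Subunit 8 (ATMG00480) had at most 1.43 FPKM, in wt flowers, subunit 6-1 (ATMG00410) at most 1.15 FPKM, in clf-28 siliques, and the row named ATP synthase 9 (ATMG01090) at most 0.645 FPKM. The 3 rows for cytochrome c maturation (ATMG00180, ATMG00900 and ATMG00960), the steps that attach haem, lay between 0.0240 and 0.671 FPKM.

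**Figure D2:**
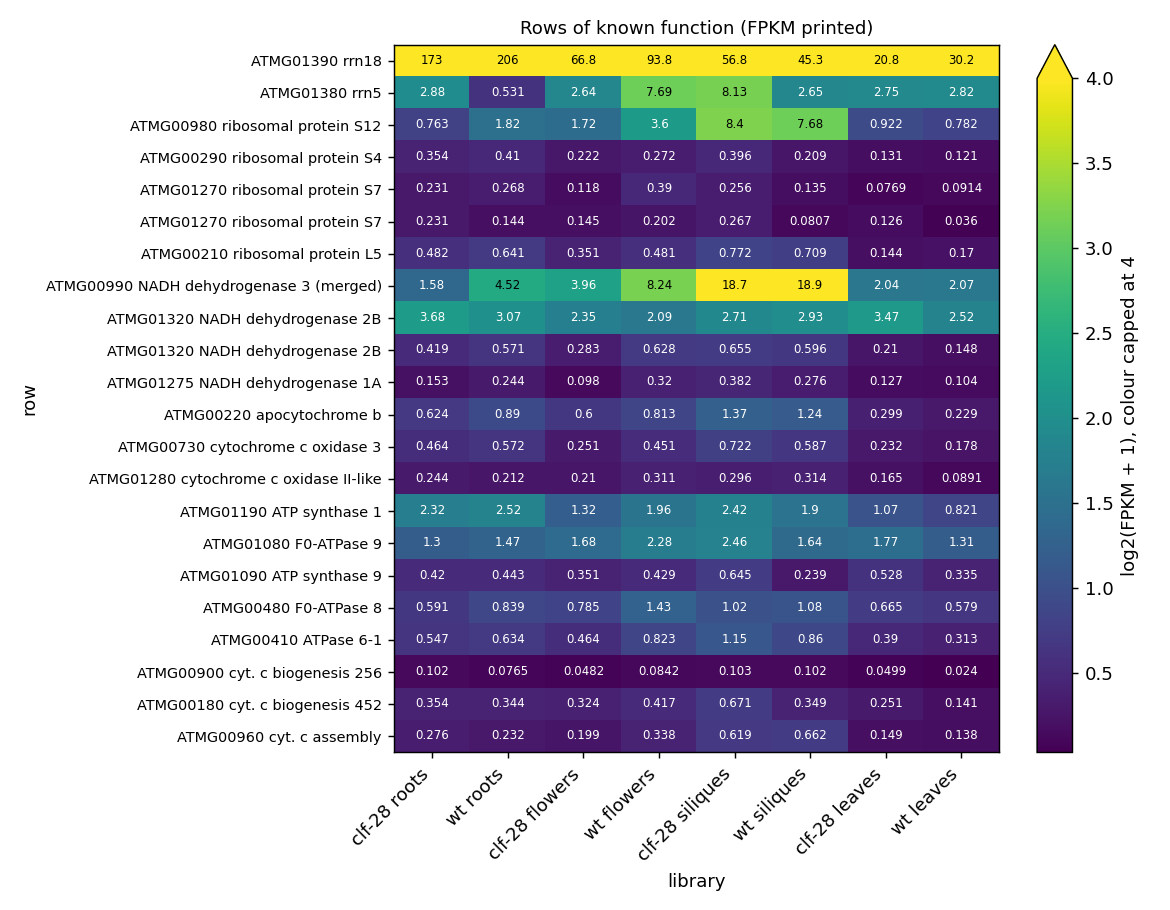
Each line is a row of known function and each column a library, clf-28 left of wt in each organ; the printed number is the FPKM and the colour log2(FPKM + 1), capped at 4. In the silique libraries the merged nad3 row had 18.7 FPKM in clf-28 and 18.9 FPKM in wt, and rps12 had 8.40 FPKM in clf-28 and 7.68 FPKM in wt; rrn5 reached 8.13 FPKM in clf-28 siliques.

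The organ differences were tested with limma on log2(FPKM + 1), a scale on which changes of low genes are understated, with organ and genotype in the model and p-values adjusted by Benjamini-Hochberg over all 24078 loci tested. Each organ then rests on 1 library of each genotype. A row was tested when its status was usable and it had at least 1 FPKM in some library, which 34 rows met. Of these, 33 had at least 1 FPKM in clf-28 siliques and 24 in wt siliques, against 16 in clf-28 leaves and 15 in wt leaves, so many rows entered through siliques, and the counts below are given as descriptions.

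In roots against leaves, 4 of the 34 rows rose and 0 fell, against 34.7% and 14.8% of all loci, so the share of rows called was below the background. They were rrn18 with a log2 difference of 2.87 ± 0.24 (SE; limma adjusted p = 0.00085), the merged ATMG00020 row with 2.22, ATMG00030 with 1.97 and ATP synthase subunit 1 with 0.82 (limma adjusted p = 0.0251). At an unadjusted p under 0.05 the counts were 6 higher, against 39.9% of all loci, and 0 lower, against 16.5%. The median log2 difference of the 34 rows was 0.26, and that of all loci was 0.29. For comparison, 30 of 33 tested plastid rows were lower in roots and 0 higher. With quantile scaling 3 rows were higher and 2 lower. With single libraries left out the median of the rows lay between 0.19 and 0.35.

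In flowers against leaves, 5 of 34 rows rose and 0 fell, against 34.6% and 8.38% of all loci. They were ATMG00030 with a log2 difference of 1.70, rrn18 with 1.62 ± 0.24 (SE; limma adjusted p = 0.00722), the merged ATMG00020 row with 1.52, the merged nad3 row with 1.15 (limma adjusted p = 0.0489) and ATMG00510, an ID without a product name, with 0.62. At an unadjusted p under 0.05 the counts were 11 higher, against 41.7% of all loci, and 0 lower, against 10.9%. The median was 0.41 for the rows and 0.36 for all loci. With quantile scaling 3 rows were higher and 5 lower, and ATMG00510 turned to -0.17. The count changed with the library left out, but each such fit leaves 1 library in an organ, and no count over all loci was made for it. The median of the rows lay between 0.23 and 0.59 in these fits.

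In siliques against leaves, 12 of 34 rows rose and 0 fell, against 19.8% and 9.74% of all loci. The merged nad3 row had a log2 difference of 2.70 ± 0.34 (SE; limma adjusted p = 0.00821) and rps12 one of 2.29 ± 0.30 (SE; limma adjusted p = 0.00879). The difference was nearly the same in both genotypes, 9.16-fold in clf-28 and 9.13-fold in wt for the merged nad3 row on the FPKM scale. The merged ATMG00020 row had a log2 difference of 1.48, ATMG00030 one of 1.40 and apocytochrome b one of 0.87, and the other 7 rows, rrn18 among them at 0.99, had between 0.68 and 0.99. The median was 0.64 for the 34 rows and 0.15 for all loci. It was 0.067 over all 164 rows with usable status when no minimum level was set, but most of these are low, where this scale understates changes. Over the 15 rows with at least 1 FPKM in both leaf libraries it was 0.61, and 13 of 15 were above 0. That choice was not made through siliques, but it was made through leaves, the baseline of the difference. No median over all loci was made for that choice. Among all loci tested, about 14850 were above 0 and 9231 below. The median of 0.61 was the value of rrn5 itself, with an SE of 0.70 and a rise in 1 of 2 genotypes. The 15 rows thus give no separate support for a rise in siliques. Without clf-28 siliques, the library with the seed markers, the median of the 34 rows was 0.42. What those seed transcripts contribute to the rows was not tested.

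The silique count changed with the library left out, most of all with a leaf library. Each such fit leaves 1 library in an organ and fewer residual degrees of freedom for every locus. No count over all loci was made for these fits, so the change was not shown to be particular to the rows. The median of the rows lay between 0.42 and 0.78 in them. With quantile scaling 4 rows were higher and 1 lower. The merged nad3 row and rps12 kept their direction under each alternative that gave them a value, which for the merged nad3 row leaves out the fit without merged rows. Without wt leaves the log2 difference was 2.37 for the merged nad3 row and 2.01 for rps12, and both fell short of the threshold. At an unadjusted p under 0.05, 19 rows were higher, against 28.5% of all loci, and 0 lower, against 14.8%.

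**Figure D3:**
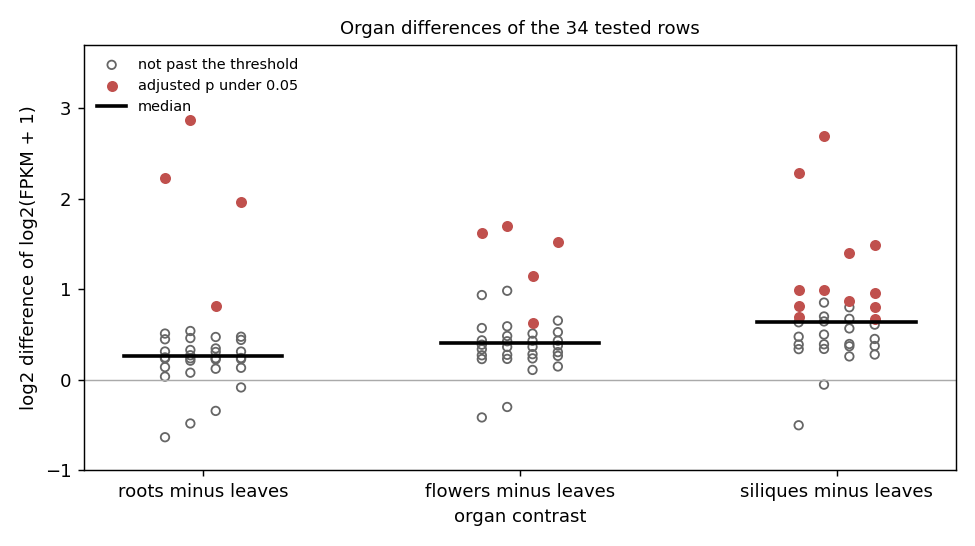
Each point is 1 of the 34 tested rows, at its log2 difference from leaves on the log2(FPKM + 1) scale; filled points passed an adjusted p of 0.05 in limma and the black lines are medians (0.26, 0.41 and 0.64). The merged nad3 row and rps12 lead in siliques (2.70 and 2.29) and rrn18 leads in roots (2.87).

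The nuclear genes of the same pathways gave other counts. Of 30 tested nuclear genes for respiratory chain and ATP synthase subunits, 27 rose in roots, 23 in flowers and 5 in siliques, where 34.7%, 34.6% and 19.8% of all loci rose, and 0 fell in any of these against leaves. The share was above that of all loci in roots and flowers and near it in siliques. At an unadjusted p under 0.05 in limma, 14 of the 30 were higher in siliques, against 28.5% of all loci, and 0 lower, against 14.8%. Their median log2 difference in siliques was 0.33, against 0.15 for all loci. SDH1-1, the flavoprotein of complex II, had 103 FPKM in clf-28 roots and 135 FPKM in wt roots, against 34.9 FPKM in clf-28 leaves and 35.0 FPKM in wt leaves, a log2 difference of 1.73. For mitochondrial RNA and DNA machinery, 28 rows of 27 nuclear genes were tested, RPOTmp having 2 rows. Of these rows, 11 rose and 3 fell in roots, near the 34.7% and 14.8% of all loci. In flowers 18 rose and 0 fell, where 34.6% and 8.38% of all loci did, and in siliques 2 rose and 1 fell, where 19.8% and 9.74% did. PMH1, an RNA helicase of intron splicing, had 29.5 FPKM in clf-28 roots and 37.7 FPKM in wt roots, against 6.94 FPKM in clf-28 leaves and 9.25 FPKM in wt leaves. Of 10 tested genes for alternative respiration, 1 rose and 2 fell in roots, 3 rose and 2 fell in flowers, and 1 rose and 3 fell in siliques, against the same shares of all loci. AOX1B, an alternative oxidase that bypasses the later complexes, had 3.17 FPKM in clf-28 flowers and 4.13 FPKM in wt flowers and at most 0.079 FPKM elsewhere. Whether nuclear and mitochondrial rows differ in these responses was not tested.

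The question of the study, what changes in clf-28, gave no call among the mitochondrial rows. Over the 4 organs, with organ as a block, 0 of 34 rows passed the threshold in limma, as did 0% of all loci, and 0 passed an unadjusted p of 0.05, against 5.49% of all loci higher and 6.3% lower. The median log2 difference of clf-28 minus wt was -0.01 for both the rows and all loci. The smallest p-values toward lower values belonged to ATMG00030 (-0.40, lower in 3 of 4 organs; limma adjusted p = 0.437) and the merged nad3 row (-0.51, lower in 4 of 4 organs; limma adjusted p = 0.457). Toward higher values they belonged to a row without a name (0.50, higher in 3 of 4 organs; limma adjusted p = 0.481) and ATMG00110 (0.29, limma adjusted p = 0.517). The difference of the clf-28 effect between the reproductive organs and the seedling organs also gave 0 calls in limma, with 0 of 34 rows at an unadjusted p under 0.05, against 1.64% of all loci higher and 2.71% lower. The nuclear respiratory chain genes gave 0 calls over organs as well. Of their 30 differences 30 were negative, as were about 12560 of the 24078 loci, and the median was -0.21. At an unadjusted p under 0.05 in limma, 6 were lower, against 6.3% of all loci, and 0 higher, against 5.49%. These genes were all read from the same 8 libraries, so they are not independent observations of a clf-28 effect.

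Within organs, rows with at least 1 FPKM in either library were set side by side, with 1 library against 1. A row that reached 1 FPKM in only 1 library had to be higher there. In siliques 33 rows reached it in clf-28 and 24 in wt, and in flowers 18 in clf-28 and 23 in wt. The counts and medians below were thus fixed in part by this choice of rows. In flowers, 21 of 23 rows had lower values in clf-28, against 48.6% of all loci, and 2 had higher ones, against 51.4%, and the median log2 ratio was -0.43, against 0.0085 for all loci. In siliques, 24 of 33 rows had higher values in clf-28, against 49% of all loci, and 9 had lower ones, against 51%, with a median of 0.23. In roots, 13 of 20 had lower values, against 62.4% of all loci, and 7 had higher ones, against 37.6%, with a median of -0.18. In leaves 11 of 16 had higher values, against 47.7%, and 5 had lower ones, against 52.3%, with a median of 0.08. The leaf median was -0.08 when only rows with 5 FPKM or more entered. The median was thus below 0 in flowers and above 0 in siliques. In a fit added after these values were seen, with 1 clf-28 effect shared by roots and leaves (2 residual degrees of freedom), the clf-28 effect in siliques minus that in flowers had a median of 0.70 over the 34 tested rows and -0.02 over all loci. It gave 0 calls in limma (smallest adjusted p = 0.434), as for 0% of all loci. At an unadjusted p under 0.05, 10 rows had a higher effect in siliques, against 5.41% of all loci, and 0 a lower one, against 5.95%. Of the 34 rows, 33 had at least 1 FPKM in clf-28 siliques. This fit thus used rows chosen in part through that library and gives no separate support. The silique libraries also differed in seed markers, with 10178 FPKM in clf-28 and 3.03 FPKM in wt, and the part of these in the silique ratios was not tested.

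Few rows differed by 2-fold on the log2(FPKM + 1) scale. In siliques, whose libraries differ in seed markers as given above, 3 of 33 rows were higher in clf-28, where 11.4% of all loci were, and 0 lower, where 8% of all loci were. They were the merged row of ATMG00620 with ATMG00630 (2.08 FPKM in clf-28 and 0.194 FPKM in wt), rrn5 (8.13 FPKM in clf-28 and 2.65 FPKM in wt) and the row without a name (3.71 FPKM in clf-28 and 1.01 FPKM in wt). In roots 1 row was higher, rrn5 with 2.88 FPKM in clf-28 and 0.531 FPKM in wt, and 1 was lower, the merged nad3 row with 1.58 FPKM in clf-28 and 4.52 FPKM in wt, where 5.55% and 1.22% of all loci were. In flowers 0 were higher and 1 was lower, rrn5 with 2.64 FPKM in clf-28 and 7.69 FPKM in wt, where 1.51% and 1.04% of all loci were. The rrn5 row is the short one of 118 bp, for which FPKM was not tested. In leaves no row reached 2-fold in either direction, where 5.45% of all loci were higher and 1.43% lower. The authors' intervals of clf-28 and wt overlapped for every measured row, and the lower bound was 0 for nearly all of them: rrn18 in clf-28 roots had an upper bound of 435 FPKM. Nearly all loci overlapped as well. The intervals lay apart for 7 of 19742 loci in roots, 10 of 18509 in leaves, 4 of 20926 in flowers and 42 of 20892 in siliques.

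**Figure D4:**
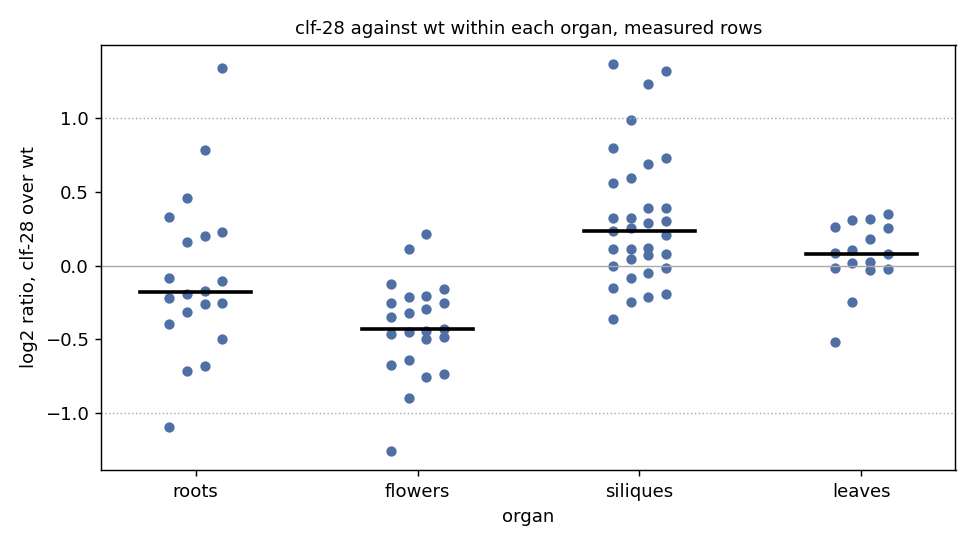
Each point is a measured row, at its log2 ratio of clf-28 over wt within an organ on the log2(FPKM + 1) scale; black lines are medians (roots -0.18, flowers -0.43, siliques 0.23, leaves 0.08) and dotted lines mark 2-fold. Most points lie under 0 in flowers and above 0 in siliques, and the entry of a row through its higher library fixes part of this.

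Rows on chromosome 2 repeated the values of their mitochondrial partners in part. AT2G07675, the nuclear copy of rps12 shown above, had between 0.988 and 1.01 times the FPKM of ATMG00980 in all 8 libraries, so the rise in siliques stood in both rows. AT2G07751, the copy of nad3, had between 0.282 and 0.435 times the merged mitochondrial row, with 6.62 FPKM in clf-28 siliques and 5.33 FPKM in wt siliques, against 0.812 FPKM in clf-28 leaves and 0.614 FPKM in wt leaves. AT2G07698, which holds the copy of atp1, had between 0.831 and 0.897 times ATMG01190. Of 32 such pairs, 24 were above 0 in both rows in all libraries and 2 kept a ratio within 5% of 1 in all of them. The 110 nuclear loci covered to at least 80% by mitochondrial matches, 107 of them on chromosome 2, summed to 61.9 FPKM in clf-28 siliques and 46.2 FPKM in wt siliques, against 24.2 FPKM in clf-28 leaves and 17.8 FPKM in wt leaves. Reads of identical copies cannot be told apart, so the values of rps12, nad3 and atp1 are those of a sequence present in both genomes. For rrn18 and rrn5 the RefSeq nuclear genome held no match of at least 95% identity over at least 100 bp. Copies outside that assembly were not searched for. Other RefSeq genes, among them those for apocytochrome b (cob), cox3, atp8, atp9, rps4, rps7 and rpl5, were also matched over 100% of their length in the nuclear genome. AT2G07727, the copy of apocytochrome b, had between 1.30 and 1.84 times ATMG00220. The genome that gave the reads of these rows was not tested either.

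**Figure D5:**
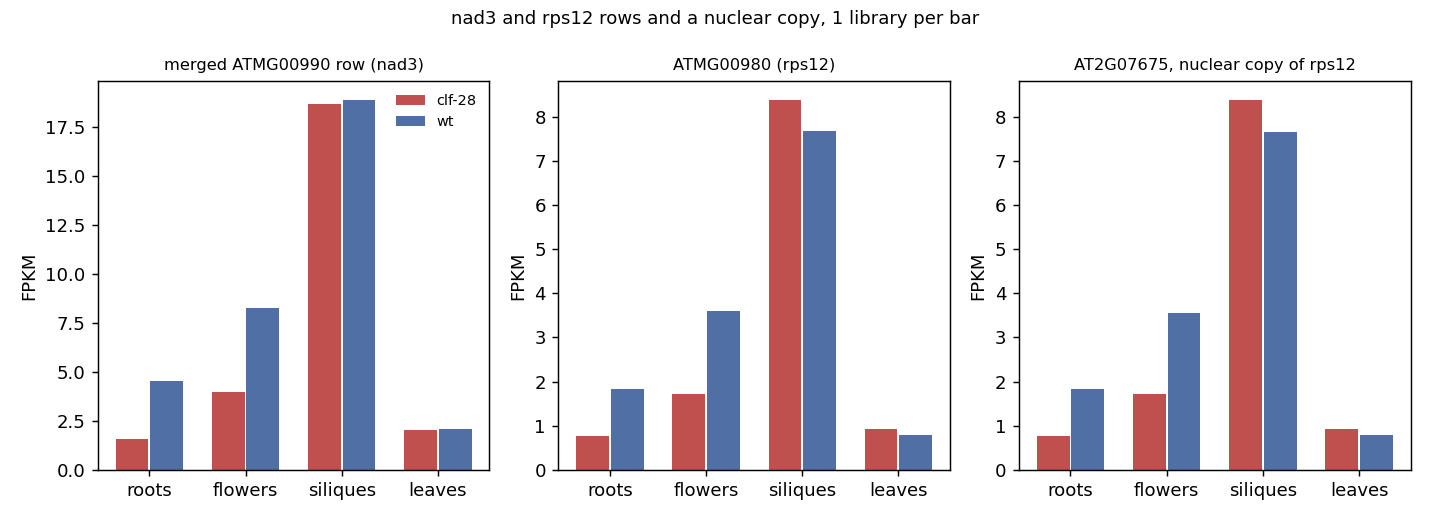
Bars give the FPKM of the merged nad3 row, of rps12 and of AT2G07675, the nuclear copy of rps12, in each library, clf-28 left of wt, with 1 library per bar and no error. The 3 panels have the same order of organs, with both silique libraries highest, and the rps12 panels are nearly equal (8.40 FPKM in clf-28 siliques).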

How the data were processed

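RNA was column-purified with DNase treatment and made into TruSeq version 2 libraries for a HiSeq 2000, per the labels' protocols; TopHat, Cufflinks and TAIR10 are named, without versions, per the submitters' processing notes. The authors deposited FPKM with lower and upper bounds and a status for each locus and library, per the file headers; the status column is a flag of unit other in the deposited table. These values were used as deposited. Read counts were not used here and depth is unknown, so no counting interval could be computed. Since nothing gives separate cultures, p-values measure only the spread between these libraries.

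Values were transformed as log2(FPKM + 1) and fitted in R 4.3.3 by limma 3.58.1, trended over mean level, with organ and genotype as terms (3 residual degrees of freedom; 2 with genotype nested in stage), over loci with usable status and at least 1 FPKM in a library. The threshold was an adjusted p of 0.05. The fit was tested on simulated data. Nuclear copies were found with blastn 2.17.0 against the RefSeq genome, whose mitochondrion (367808 bp) is another sequence than the deposited ChrM, so only nuclear coordinates were taken from it. Python 3.11.15, pandas 2.3.3 and matplotlib 3.10.9 were used. Named were rows of known function, the 6 highest other rows, and up to 5 rows with the smallest p per contrast and direction. Members and gene lists were chosen with earlier results of these data known. Alternatives were other pseudocounts, filters and scalings, merged rows or status left out, and single libraries left out.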

Additional observations from a re-analysis of the deposited data

How the results depend on the processing

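With organ left out of the genotype fit (no replicate block), 0 rows passed in either direction, as with the block, and 0 passed without any 1 organ. Roots minus leaves: rows higher numbered 11 with no minimum level and 3 to 7 when single libraries were left out; rows lower numbered 1 at pseudocount 0.1, 2 with quantile scaling and 0 to 1 with libraries left out; the median was 0.66 at pseudocount 0.1 and -0.0806 with quantile scaling. Flowers minus leaves: rows higher numbered 3 at pseudocount 5, with the nuclear sum, upper quartile or quantile scaling, and without merged rows, and 0 to 12 with libraries left out; 5 were lower with quantile scaling, where ATMG00510 was at -0.17; the median was 0.76 at pseudocount 0.1, 0.0617 with no minimum, 0.93 at 5 FPKM and -0.38 with quantile scaling. Siliques minus leaves: rows higher numbered 6 at 5 FPKM, 4 with quantile scaling (1 lower) and 0 to 16 with libraries left out; the median was 1.17 at pseudocount 0.1, 0.22 at pseudocount 5, 0.067 with no minimum, 0.99 at 5 FPKM, 0.0720 with quantile scaling and 0.42 to 0.78 with libraries left out. Quantile scaling moved the median of all loci by -0.25 in roots, -0.43 in flowers and -0.26 in siliques, and upper quartile scaling by -0.19 in roots. The leaf median of clf-28 over wt was -0.0832 at 5 FPKM (4 rows). Without the rows of rrn18 and rrn5 alone the share of all FPKM was 0.0284% in clf-28 roots and 0.0394% in wt roots, and without merged rows 0.0516% in wt roots. The causes were not tested. A fit without 1 library leaves 1 library in an organ and fewer residual degrees of freedom for every locus. Counts over all loci were not made for such fits. Of 262 recomputed counts, medians and shares, 217 stayed the same or moved little. Among these were the clf-28 counts, which were 0 under every setting. In the main fit 0% of all loci were called for clf-28 as well, and 0 rows were lower in every organ contrast. Such counts had little room to change, so the tally does not show that the organ counts were stable. With unknown depth and lower bounds of 0, differences among rows under 1 FPKM were not resolvable here.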
